A study of Mus musculus with 34 samples.

Results

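The genes described here are 10 regulators and structural markers of the epithelial-mesenchymal transition, namely *Cdh1*, *Cdh2*, *Vim*, *Fn1*, *Snai1*, *Snai2*, *Twist1*, *Twist2*, *Zeb1* and *Zeb2*. They were chosen by name, and their value is the mean H3K4me3 signal within 1000 bp of the gene 5′ end, out of 21938 protein-coding genes measured in the same way. H3K4me3 (trimethylation of lysine 4 of histone H3) was profiled by CUT&RUN, in which an antibody directs a nuclease to the mark and the released DNA fragments are sequenced. Villus cells were scraped from the small intestine of 2 wild-type mice and of 2 ApcMin/+ mice, which carry a mutant *Apc* allele and develop intestinal tumours, and the tissue of both groups appeared normal. All mice were C57BL/6J, with an age of 5 weeks in the sample labels and of 6 weeks in the methods of the study. The scraped tissue was not sorted, so that stromal and immune cells of the villus could be present, and each library is 1 mouse.

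Epithelial-mesenchymal transition is the process by which cells that are joined in a sheet lose their junctions and become motile. E-cadherin (*Cdh1*) holds intestinal epithelial cells together, and N-cadherin (*Cdh2*), vimentin (*Vim*) and fibronectin (*Fn1*) are typical of mesenchymal cells. The Snail (*Snai1*, *Snai2*), Twist (*Twist1*, *Twist2*) and Zeb (*Zeb1*, *Zeb2*) proteins are transcription factors that drive the transition, the Snail and Zeb proteins by binding E-boxes at *Cdh1* and repressing it. H3K4me3 is found at the 5′ ends of genes in use, mainly where the DNA is rich in CpG dinucleotides.

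The deposited tracks stated between 1430000 and 5470000 tags per library, the lowest in wild-type replicate 1. ApcMin/+ replicate 1 stood apart from the rest, with a median signal of 13.2 over the 9930 promoters whose signal averaged 2 or more, against 3.06 to 4.53 in the other libraries, and with the lowest background, 0.198 against 0.279 to 0.322. Fitted differences between genotypes are therefore given with and without it. Signal is coverage per base scaled to 10000000 tags. In a window of 2001 bp, 3 fragments amounted to a signal of 1.05 in wild-type replicate 1, 0.313 in wild-type replicate 2, 0.405 in ApcMin/+ replicate 1 and 0.274 in ApcMin/+ replicate 2, and values at or below these floors were too shallow to be told from background. Enterocyte markers carried the mark in all 4 libraries. *Vil1* (villin of the brush border) had signals of 12.1 and 4.55 in the wild-type and 33.1 and 6.97 in the ApcMin/+ libraries, and *Cdx2* (an intestinal transcription factor) had 5.62, 6.08, 25.8 and 6.97. *Sis* (sucrase-isomaltase) was the lowest of 10 enterocyte markers, with 1.07, 0.964, 4.27 and 1.33. Among 8 housekeeping genes the median was 4.26 and 3.09 in the wild-type and 11.6 and 3.53 in the ApcMin/+ libraries, and among 8 genes of other lineages it was 0.697, 0.581, 0.314 and 0.556. Of the former, *Rpl7* had 8.09, 6.37, 26.1 and 8.11, *Actb* 7.38, 4.44, 24.1 and 5.68 and *Eef1a1* 1.39, 0.939, 1.21 and 1.91. Of the latter, *Krt1* had 0.697, 1.25, 0.405 and 0.927 and *Alb* 1.02, 0.168, 0.073 and 0.249.

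The promoters of 5 of the 10 genes were found in the RefSeq promoter set. Those of *Snai1*, *Twist1*, *Twist2* and *Zeb2* are shown because these transcription factors differ in CpG content. Among them *Snai1* alone was clearly marked by H3K4me3. The 250 bases before the transcription start are given 5′ to 3′ on the strand of the gene (GRCm38.p6, the assembly of mm10), with CpG dinucleotides in capitals. They lie at chr2:167537945-167538194 (plus strand) for *Snai1*, chr12:33957421-33957670 (plus strand) for *Twist1*, chr1:91801211-91801460 (plus strand) for *Twist2* and chr2:45117443-45117692 (minus strand) for *Zeb2*, whose RefSeq start lies 47 bp upstream of the GENCODE 5′ end used for its signal.
Snai1: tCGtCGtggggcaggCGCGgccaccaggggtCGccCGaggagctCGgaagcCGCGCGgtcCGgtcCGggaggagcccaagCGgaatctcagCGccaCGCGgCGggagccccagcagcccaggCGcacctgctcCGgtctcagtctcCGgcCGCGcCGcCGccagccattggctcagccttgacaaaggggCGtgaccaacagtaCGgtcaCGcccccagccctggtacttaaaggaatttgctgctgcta
Twist1: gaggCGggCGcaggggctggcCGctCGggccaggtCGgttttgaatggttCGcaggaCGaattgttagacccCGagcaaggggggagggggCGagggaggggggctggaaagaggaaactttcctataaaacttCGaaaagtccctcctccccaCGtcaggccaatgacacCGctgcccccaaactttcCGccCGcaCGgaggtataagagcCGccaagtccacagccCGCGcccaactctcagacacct
Twist2: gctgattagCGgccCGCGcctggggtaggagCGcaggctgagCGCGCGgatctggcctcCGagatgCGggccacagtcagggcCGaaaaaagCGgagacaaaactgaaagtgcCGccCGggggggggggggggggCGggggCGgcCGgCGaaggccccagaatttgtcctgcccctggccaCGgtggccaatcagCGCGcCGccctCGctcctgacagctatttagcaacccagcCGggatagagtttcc
Zeb2: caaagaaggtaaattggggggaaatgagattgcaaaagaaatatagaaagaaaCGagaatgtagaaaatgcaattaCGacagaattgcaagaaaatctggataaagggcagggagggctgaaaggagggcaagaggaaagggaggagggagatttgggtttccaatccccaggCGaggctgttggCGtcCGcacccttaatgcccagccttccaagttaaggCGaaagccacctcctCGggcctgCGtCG
The 300 bp promoter, which adds the first 50 transcribed bases, held 34 CpGs for *Snai1*, 27 for *Twist1*, 25 for *Twist2* and 9 for this start of *Zeb2*. The median over 32851 RefSeq promoters was 7. Another RefSeq start of *Zeb2*, at position 45110277 of chromosome 2, held 19. The E-box CAGGTG, or CACCTG on the other strand, was searched on both strands. It occurred once at *Snai1*, beginning 126 bases before the start, and in none of the other 7 promoter entries of *Vim*, *Twist1*, *Twist2* and *Zeb2*, while 20.2% of all RefSeq promoters held at least 1. A match is a description of the letters and not of binding.

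*Cdh1* was the most strongly marked of the 10 genes in each of the 4 libraries. The gene lies at chr8:106603351-106670246 on the plus strand of mm10. Promoter signals of 7.69 (replicate 1) and 5.70 (replicate 2) were measured in wild type, and of 22.3 and 5.74 in the corresponding ApcMin/+ libraries, which corresponds to 22.0, 54.5, 165.5 and 62.8 fragments. ApcMin/+ replicate 2 fell between both wild-type libraries and ApcMin/+ replicate 1 was far above them, so the genotypes overlapped as deposited. Once each library was scaled to its median promoter, both ApcMin/+ libraries were below both wild-type libraries. The margin between the libraries numbered 1 was then very small, and the share of all promoters with that order was not determined. Within each library *Cdh1* was 17.7 to 112.9 times the background and between the 90.1st and 97.3rd percentile of all promoters. Its signal extended into the gene. The mean over the first 1000 bp downstream of the 5′ end exceeded that over 1000 bp upstream in all 4 libraries, 10.1 against 5.32 and 10.1 against 1.29 in the wild-type and 35.7 against 8.93 and 8.79 against 2.68 in the ApcMin/+ libraries. The enriched region at its 5′ end, called on the mean of the 4 tracks, spanned 4900 bp at chr8:106602601-106607500 and overlapped exon and UTR sequence of *Cdh1*. Of all promoter regions, 96.4% were as long or shorter. It shortened to 2200 bp, the 76.8th percentile, when bins were joined over 200 bp in place of 500 bp.

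**Figure D1:**
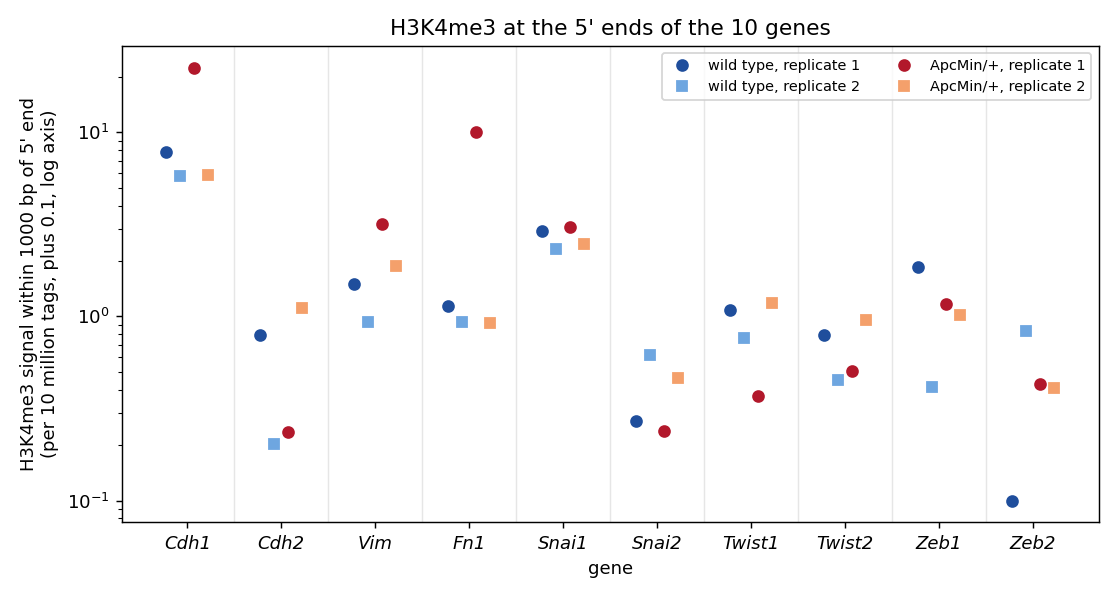
H3K4me3 signal within 1000 bp of the 5′ end of each gene (y axis, per 10000000 tags, with 0.1 added on a log axis) in 2 wild-type libraries (blue) and 2 ApcMin/+ libraries (red and orange), 1 point per library. *Cdh1* is highest in each library, *Snai1* keeps between 2.23 and 2.98, *Fn1* is high in ApcMin/+ replicate 1 only, and most transcription factors stay near or below 1.

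Of the 3 mesenchymal structural genes, *Vim* was above the 3-fragment floor in all libraries, *Fn1* was marked clearly in 1 library and *Cdh2* was near background. In wild type the signals of *Vim* and *Fn1* were close, with 0.835 and 0.836 in replicate 2. *Vim* (chr2:13573927-13582826, plus strand), which encodes an intermediate filament protein, had signals of 1.39 and 0.835 in the wild-type and of 3.07 and 1.77 in the ApcMin/+ libraries, replicate 1 first. Both ApcMin/+ libraries were above both wild-type libraries, on 4.0 and 8.0 fragments in wild type and 22.7 and 19.4 in ApcMin/+. As deposited, *Vim* was 1 of 10 genes with this order, which 27.2% of all promoters tested showed. No gene had the opposite order as deposited, which 7.51% showed. The order held in this window as deposited, but not after each library was scaled to its median promoter. It also did not hold over the called region of 1800 bp. There the signals were 3.10 and 1.80 in the wild-type and 3.22 and 2.63 in the ApcMin/+ libraries and the groups overlapped. Its rank changed little, from the 46.2nd to the 54.6th percentile over the 4 libraries. Its profile was highest 1400 to 1499 bp into the gene in both wild-type libraries, beyond the promoter window. In ApcMin/+ the maximum lay at 200 to 299 bp in replicate 1 and at 1000 to 1099 bp in replicate 2. These are single bins on few fragments, so a shift between genotypes cannot be read from them. The RefSeq start of *Vim* lies 384 bp downstream of the 5′ end used.

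*Vim* is also used by leukocytes, fibroblasts and endothelium, and the marker lists of these cells were measured in the same libraries. Over 8 leukocyte markers the summed signal was 4.56 and 4.61 in the wild-type and 10.0 and 5.93 in the ApcMin/+ libraries, and 4 of the 8 were higher in both ApcMin/+ libraries, against 27.2% of all promoters. Their median difference, ApcMin/+ minus wild type, was 0.19 on the log2(signal + 1) scale, 0.10 without ApcMin/+ replicate 1 and -0.16 after each library was scaled to its median promoter. Among them *Cd52* had signals of 0 and 0.418 in the wild-type and 2.70 and 1.56 in the ApcMin/+ libraries, while *Cd3e* had 2.09, 0.835, 1.53 and 0.799. *Lyz2* was the lowest of this list, with 0.512, 0.418, 0 and 0.479. Over 6 fibroblast markers the sum was 3.12 and 3.03 in wild type and 2.22 and 3.56 in ApcMin/+, over 5 smooth muscle markers 5.26 and 2.45 against 2.50 and 4.11, and over 6 endothelial markers 4.16 and 4.80 against 3.77 and 5.44. The part of leukocytes in the order at *Vim* was not tested, and more cells of a type cannot be told apart from more signal per cell in bulk tissue. In the other stromal lists, *Smtn* of smooth muscle had 2.12 and 0.808 in the wild-type and 1.28 and 0.780 in the ApcMin/+ libraries, *Cnn1* 2.09, 0.515, 0.270 and 0.988, and *Myh11* 0, 0.710, 0.135 and 0.536. *Cldn5* of endothelium had 1.05, 1.17, 0.405 and 2.08, *Pecam1* 0.337, 0.804, 2.39 and 0.329, and *Emcn* 0.349, 0.313, 0 and 0.517. These 6 genes overlapped between the genotypes. Markers listed at 0 in at least 1 library numbered 3 of 8 for leukocytes, 1 of 6 for fibroblasts, 1 of 5 for smooth muscle and 2 of 6 for endothelium.

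*Fn1* (chr1:71585520-71653200, minus strand), the gene of a matrix protein that cells secrete, had a signal of 1.05 and 0.836 in the wild-type libraries, 9.95 in ApcMin/+ replicate 1 and 0.820 in ApcMin/+ replicate 2. The values correspond to 3.0, 8.0, 73.7 and 9.0 fragments, so that 3 of the 4 libraries were alike and low and the group of ApcMin/+ mice was split. Rank within the library followed the same split, at the 43.5th, 46.7th and 37.5th percentile in the low libraries and the 69.7th in ApcMin/+ replicate 1. The difference between the ApcMin/+ replicates, 2.59 on the log2(signal + 1) scale, stood at the 99.7th percentile of those 9930 promoters, where the median was 1.45. *Fn1* is in that set through ApcMin/+ replicate 1 alone, so this rank partly follows from the filter. In that library the maximum of 31.8 lay within 100 bp upstream of the 5′ end, and the called region of 1100 bp at chr1:71652501-71653600 covered the 5′ end, exon and UTR sequence of *Fn1*, and the start of the antisense gene *Apol7d* 363 bp away. The tracks hold no strand, so signal of *Fn1* and *Apol7d* cannot be separated. The sum over 6 fibroblast markers was 2.22 in this library against 3.03 to 3.56 in the others, and that over 8 genes of other lineages was also lowest there, 2.63 against 5.25 to 6.58, as was the background. The sum over 16 mesenchymal effectors was highest there, 13.7 against 9.96 to 12.6. Of this sum *Mmp14* alone gave 6.55, against 1.69 and 1.29 in the wild-type libraries and 1.90 in ApcMin/+ replicate 2. Of the fibroblast genes *Lum* had 0.349, 0.209, 0.135 and 0.183 in wild-type replicates 1 and 2 and ApcMin/+ replicates 1 and 2, *Col14a1* 1.39, 0.690, 0.540 and 0.725, and *Col6a2* 0.675, 0.683, 0.836 and 0.822. The part of fibroblasts in the signal at *Fn1* was not tested.

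*Cdh2* (chr18:16588877-16809246, minus strand) encodes the cadherin that replaces E-cadherin in mesenchymal cells. Its signals were 0.697 and 0.104 in the wild-type and 0.135 and 1.01 in the ApcMin/+ libraries, or 2, 1, 1 and 11 fragments. Only ApcMin/+ replicate 2 exceeded the 3-fragment floor, and no enriched region was called at its 5′ end.

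**Figure D2:**
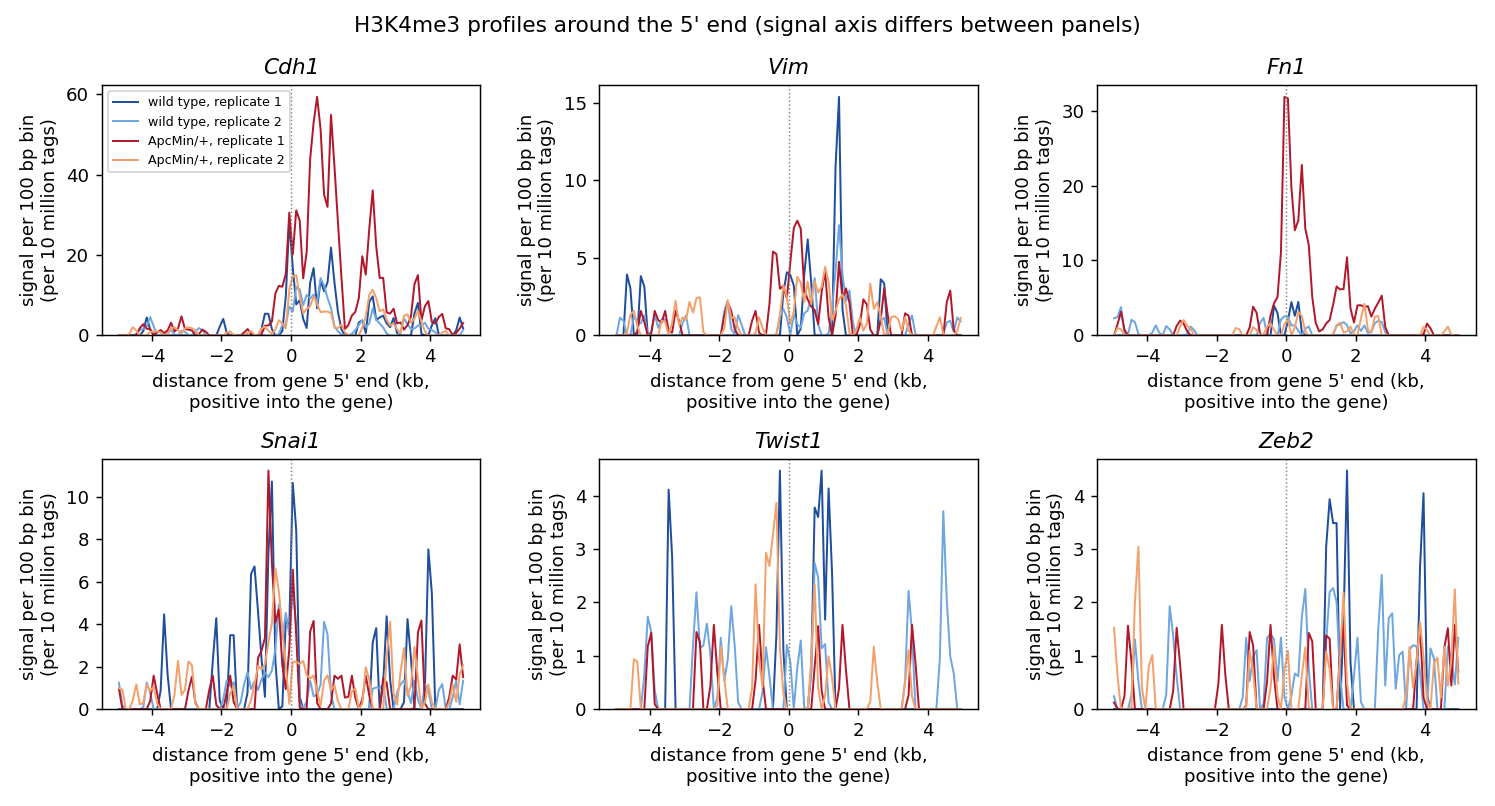
H3K4me3 signal in 100 bp bins (y axis, per 10000000 tags, scaled separately in each panel) against distance from the gene 5′ end (x axis, kb) for *Cdh1*, *Vim*, *Fn1*, *Snai1*, *Twist1* and *Zeb2*, 1 line per library. The *Cdh1* signal runs into the gene, the *Snai1* signal lies mainly upstream, *Fn1* peaks at 31.8 in ApcMin/+ replicate 1 alone, and *Twist1* and *Zeb2* show isolated fragments.

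Among the 6 transcription factors *Snai1* was the sole clearly marked gene. Located at chr2:167538195-167542814 on the plus strand, it had signals of 2.79 and 2.23 in the wild-type and of 2.98 and 2.37 in the ApcMin/+ libraries, on 8.0, 21.3, 22.0 and 25.9 fragments. These 4 values were close together as deposited and the genotypes overlapped. Once each library was scaled to its median promoter, both ApcMin/+ libraries were below both wild-type libraries. The share of all promoters with that order after scaling was not determined. ApcMin/+ replicate 1, in which the median promoter was raised, exceeded ApcMin/+ replicate 2 by 0.24 on the log2(signal + 1) scale at *Snai1*, a smaller excess than at all but 1.8% of the 9930 promoters named above. The mean signal of *Snai1*, 2.59, lies near the lower limit of that set. All members but *Cdh1* and *Fn1* stood low in this ranking, at the 5.4th percentile or below. Apart from *Snai1*, these members have a mean signal below 2 and are not in that set. Their low rank thus partly follows from the filter and from their low signal. The rank of *Snai1* was the 66.3rd and 66.7th percentile in the wild-type and the 54.2nd and 60.1st in the ApcMin/+ libraries.

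The *Snai1* signal lay mainly before the gene. Over 1000 bp upstream of the 5′ end the mean was 3.62 and 2.64 in the wild-type and 4.13 and 3.15 in the ApcMin/+ libraries, and over 1000 bp downstream it was 1.97, 1.81, 1.82 and 1.59. Upstream exceeded downstream in all 4 libraries, in contrast to *Cdh1*, where the order was the reverse in all 4. The region called there, chr2:167537001-167538400, spanned 1400 bp, overlapped exon and UTR sequence of *Snai1* and contains the CpG-rich sequence shown above.

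*Twist1* (chr12:33957671-33959829, plus strand) and *Twist2* (chr1:91801461-91848028, plus strand), basic helix-loop-helix factors of mesoderm, had CpG-rich promoters without an enriched region. *Twist1* had signals of 0.979 and 0.664 in the wild-type and 0.270 and 1.08 in the ApcMin/+ libraries, on 2.8, 6.4, 2.0 and 11.8 fragments. *Twist2* had 0.697 and 0.353 in the wild-type and 0.405 and 0.862 in the ApcMin/+ libraries, on 2.0, 3.4, 3.0 and 9.4 fragments. Neither gene separated the genotypes. Of 4638 genes with at least 25 CpGs in a RefSeq promoter, 74.3% had a mean signal of at least 2, and the median was 5.11. Against these genes *Snai1*, with a mean signal of 2.59, stood at the 30.2nd percentile, *Twist1*, with 0.747, at the 12.2nd and *Twist2*, with 0.579, at the 7.7th.

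*Snai2* (chr16:14705852-14709385, plus strand), the gene of Slug, had the lowest mean of the 10 genes, with signals of 0.170 and 0.518 in the wild-type and 0.138 and 0.365 in the ApcMin/+ libraries, on 0.5, 5.0, 1.0 and 4.0 fragments. These values were 0.608 to 1.61 times the background of their library.

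The zinc finger homeobox genes *Zeb1* and *Zeb2* were weakly covered. *Zeb1* (chr18:5591860-5775467, plus strand) had signals of 1.74 and 0.313 in the wild-type and 1.06 and 0.913 in the ApcMin/+ libraries, on 5.0, 3.0, 7.9 and 10.0 fragments. The wild-type libraries differed from each other more than the groups did. A region of 400 bp was called at chr18:5591401-5591800, 60 bp before the 5′ end of *Zeb1*, and it covers the start of *Gm2238*, an unclassified transcript on the opposite strand 149 bp from that of *Zeb1*. It held 2.0, 1.8, 4.5 and 6.3 fragments in the 4 libraries and was shorter than most promoter regions, at the 4.7th percentile.

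*Zeb2* (chr2:44983632-45117395, minus strand) was listed at 0 in wild-type replicate 1, with signals of 0.731 in wild-type replicate 2 and of 0.330 and 0.308 in the ApcMin/+ libraries, on 0, 7.0, 2.4 and 3.4 fragments. Since *Zeb2* has 17 distinct annotated coding starts, the others were examined too. The most strongly covered was that at position 45110288 of chromosome 2, with signals of 0.939 and 0.522 in the wild-type and 1.26 and 0.530 in the ApcMin/+ libraries. Its mean of 0.813 remained low, so the choice of the start did not make *Zeb2* a marked gene.

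Enriched regions thus overlapped the promoter window of 5 of the 10 genes, *Cdh1*, *Fn1*, *Snai1*, *Vim* and *Zeb1*, compared with 58.2% of the 21938 promoters. When 10 times the genome-wide mean was required in place of 5 times, *Cdh1*, *Fn1* and *Snai1* were left, 3 of 10 against 47.2% of all promoters. *Cdh1* came first and either *Snai1* or, in ApcMin/+ replicate 1, *Fn1* came second in each library, and below them the order changed from library to library. Members at or below the floor of 3 fragments numbered 6 in wild-type replicate 1, 2 in wild-type replicate 2, 5 in ApcMin/+ replicate 1 and 0 in ApcMin/+ replicate 2, so the order among *Cdh2*, *Snai2*, *Twist1*, *Twist2*, *Zeb1* and *Zeb2* was not resolved at this depth.

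**Figure D3:**
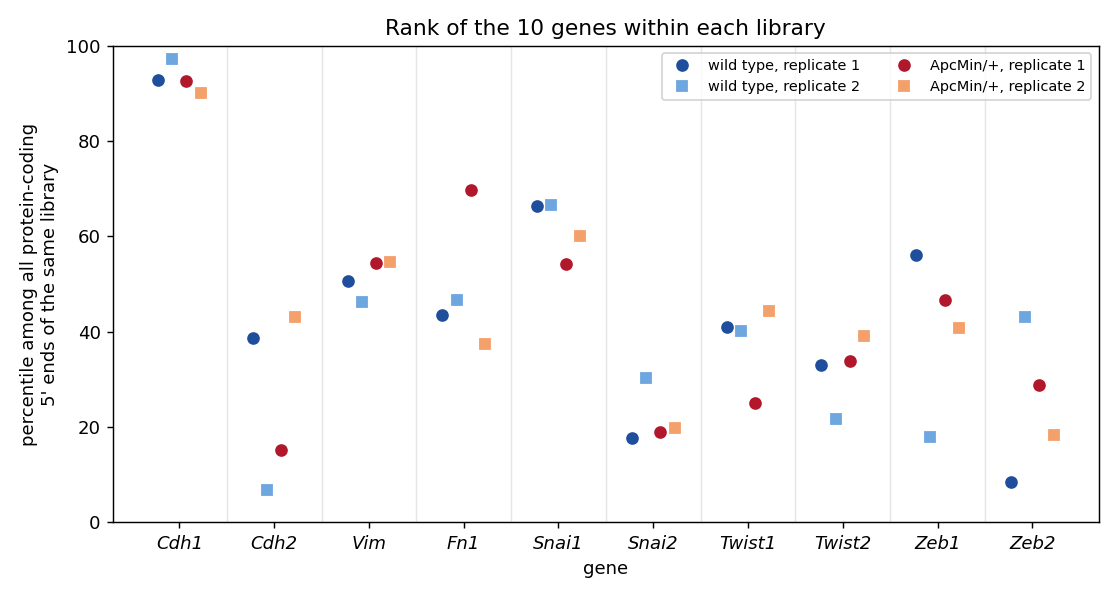
Percentile of each gene among 21938 protein-coding 5′ ends of the same library (y axis, 0 to 100), 1 point per library in the colours of the signal plot. *Cdh1* lies between 90.1 and 97.3, *Snai1* between 54.2 and 66.7 and *Vim* between 46.2 and 54.6, whereas *Cdh2* and *Zeb2* spread widely over low ranks.

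Whether the mark at these genes differed between ApcMin/+ and wild-type mice was tested with limma across 20970 promoters. None of the 10 genes passed the adjusted p threshold of 0.05, and the share of all promoters that passed was 0%, at a lowest adjusted p of 0.4. At an unadjusted p under 0.05, *Fn1* was the sole member, 1 of 10, against 599 promoters or 2.86%. The fitted difference at *Fn1*, ApcMin/+ minus wild type, was 1.20 ± 0.59 (SE) on the log2(signal + 1) scale (limma adjusted p = 0.829). It rested on 1 library. Without ApcMin/+ replicate 1 the difference was -0.09, and without ApcMin/+ replicate 2 it was 2.50 with an adjusted p of 0.000192, in a fit in which 4975 promoters passed.

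*Cdh1* differed by 0.72 ± 1.22 (SE, limma adjusted p = 0.829), from a mean of 6.69 ± 1.41 (SD, n = 2) in wild type to 14.0 ± 11.7 (SD, n = 2) in ApcMin/+. Without ApcMin/+ replicate 1 the difference was -0.18, so its direction rested on that library. *Vim* differed by 0.68 ± 0.54 (SE, limma adjusted p = 0.829), from 1.11 ± 0.40 (SD, n = 2) to 2.42 ± 0.92 (SD, n = 2), by 0.40 without ApcMin/+ replicate 1 and by 0.30 with a window of 2000 bp on each side. Its 2 groups did not overlap in the window of 1000 bp as deposited, and the difference did not pass the test. The groups overlapped once each library was scaled to its median promoter. With that scaling and without ApcMin/+ replicate 2 the difference at *Vim* was -0.18. *Snai1* differed by 0.06 ± 0.69 (SE, limma adjusted p = 0.971), from 2.51 ± 0.40 (SD, n = 2) to 2.67 ± 0.43 (SD, n = 2), and by -0.055 without ApcMin/+ replicate 1. The other 6 genes had fitted differences between -0.16 (*Twist1*) and 0.14 (*Cdh2*), with adjusted p-values from 0.843 to 0.995, and between -0.0081 (*Zeb2*) and 0.55 (*Cdh2*) without that library.

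Over the 10 genes the median difference was 0.08, and over all promoters tested it was 0.40. Without ApcMin/+ replicate 1 these medians were 0.023 and 0.095. The mean signal was higher in ApcMin/+ for 6 of 10 genes, compared with 72.7% of all promoters. When each library was scaled to its median promoter, which removes the general rise in ApcMin/+ replicate 1, the median was -0.23 over the 10 genes and -0.12 over all promoters, and 9 promoters (0.0429%) passed, none of them a member. On that scale *Cdh1* differed by -0.20 ± 0.27 (SE), *Vim* by 0.09 ± 0.57, *Fn1* by 0.45 ± 0.56 and *Snai1* by -0.62 ± 0.43, each with a limma adjusted p of 1. With all 4 libraries, the direction at *Cdh1* and at *Snai1* thus depended on the scaling, and that at *Vim* and *Fn1* did not. At *Vim*, however, the scaled difference of 0.09 was small beside its SE of 0.57.

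**Figure D4:**
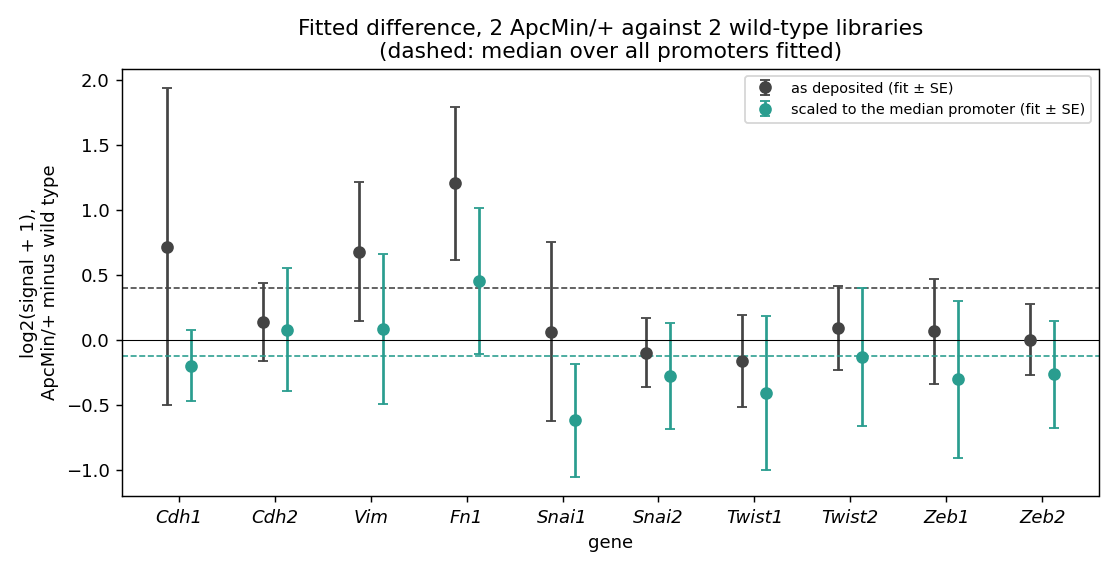
Fitted difference between 2 ApcMin/+ and 2 wild-type libraries on the log2(signal + 1) scale (y axis) for each gene, as deposited (grey) and after scaling to the median promoter (green), with bars of 1 SE and dashed lines at the medians over all promoters fitted, 0.40 and -0.12. The bars of most genes span 0, and *Fn1* has the largest difference as deposited, 1.20 ± 0.59.

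The genes that work with these regulators were read in the same libraries. Of 16 epithelial partners and regulators, 14 had a mean signal of at least 2, compared with 45.3% of all promoters. The list held catenins, junction proteins, the splicing factors *Esrp1* and *Esrp2* and the *Ovol* repressors. Within it *Epcam* and *Cldn4* reached a mean of 2 only with ApcMin/+ replicate 1 included. *Ocln* (occludin of tight junctions) had 12.9 and 7.75 in the wild-type and 38.7 and 7.76 in the ApcMin/+ libraries. *Ovol1*, which represses mesenchymal genes, had 14.5, 5.95, 26.0 and 7.47. *Ctnnb1* was lowest, with 0, 0.209, 0 and 0.183 at its annotated gene 5′ end, other starts of this gene not being examined. None of the 16 passed the test. In both ApcMin/+ libraries 4 were higher, against 27.2% of all promoters, and 1 was lower, against 7.51%. The median difference was 0.88, or 0.03 after scaling to the median promoter and 0.04 without ApcMin/+ replicate 1.

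Of 12 further transcription factors connected with the transition, 6 had a mean signal of at least 2, against the 45.3% of all promoters. Among these, *Snai3*, *Tcf4* and *Foxc1* reached it only with ApcMin/+ replicate 1 included, a library that the share of all promoters also includes. *Tcf3*, which encodes E proteins that bind E-boxes, had signals of 6.90 and 2.09 in the wild-type and 18.4 and 4.29 in the ApcMin/+ libraries, and *Sox9*, a factor of the intestinal crypt, had 6.28, 2.40, 17.7 and 4.38. *Prrx1*, a homeobox factor of mesenchyme, was lowest, with 0, 0.522, 0.412 and 0.486. None of the 12 passed the test, 4 were higher and 2 lower in both ApcMin/+ libraries, compared with 27.2% and 7.51% of all promoters, and the median difference was 0.50, or 0.03 after scaling and 0.11 without ApcMin/+ replicate 1.

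Of 11 genes of TGF-beta signalling, which induces the transition, 10 had a mean signal of at least 2, whereas of 16 mesenchymal effectors 1 did. The share of all promoters was 45.3%. That 1 effector, *Mmp14*, reached a mean of 2 through ApcMin/+ replicate 1 alone. In the TGF-beta list *Tgfb3* reached it only with that library included. *Smad3*, a transducer of the pathway, had signals of 7.67 and 3.26 in the wild-type and 17.5 and 5.14 in the ApcMin/+ libraries, and *Skil*, an inhibitor, had 6.28, 4.70, 17.0 and 3.72. The ligand gene *Tgfb2* was lowest, with 0.697, 0.821, 1.22 and 1.19. None of the 11 passed the test, 4 were higher and 0 lower in both ApcMin/+ libraries, where the shares of all promoters were 27.2% and 7.51%, and the median difference was 0.54, or -0.17 after scaling and -0.04 without ApcMin/+ replicate 1. Among the effectors *Mmp14*, a membrane-bound matrix protease, had 1.69, 1.29, 6.55 and 1.90, *Itga5*, a fibronectin receptor subunit, had 1.13, 1.30, 1.09 and 1.90, and *Fap*, of activated fibroblasts, had 0, 0.104, 0.218 and 0.427. None of these 16 passed the test, 3 were higher and 3 lower in both ApcMin/+ libraries, beside 27.2% and 7.51% of all promoters, and the median difference was 0.09, or -0.16 after scaling and 0.28 without ApcMin/+ replicate 1.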

How the data were processed

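H3K4me3 CUT&RUN libraries of 2 wild-type and 2 ApcMin/+ mice, grouped by the labels, were analysed. Per the methods and labels, the authors trimmed and aligned read pairs to mm10 with Bowtie2, removed duplicates with Picard and reads with MAPQ under 10, kept fragments of 150 to 500 bp and made tracks with HOMER. The deposited values are signal, that is coverage scaled to 10000000 tags, without control subtraction or pooling, and not counts. The other libraries were not analysed here.

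Signal was averaged within 1000 bp of the 5′ ends of 21938 GENCODE M21 genes (Python 3.11.15). Fragments were obtained from the signal, the track sum and the stated tags, and cover counting error only. Enriched regions were 100 bp bins at 5 times the genome-wide mean of the 4 averaged tracks, joined over 500 bp, with at least 300 bp. Background was the signal outside regions and over 5000 bp from any TSS.

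Promoters with signal in at least 2 libraries (20970) were fitted with limma 3.58.1 with a trend (R 4.3.3), after log2(signal + 1), and p-values were adjusted by Benjamini-Hochberg. The fit of all promoters that had been planned is given as an alternative. Tested on simulated data for this comparison, the fit recovered 98% of 200 promoters changed 4-fold among 20601, but 0% when 1 library was raised 3-fold, and 98% of 200 after scaling to the median promoter, among 20774. The changed promoters all had a mean signal of at least 2, which 3 of the 10 genes reach. The simulated libraries varied by fragment sampling only and not between mice. These shares therefore do not say how often a change at the 10 genes would be found. P-values rest on the spread between libraries of 1 mouse each. In that spread, differences between mice and differences in library yield cannot be told apart.

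The 10 genes and all lists were chosen with earlier results of these data known. All 10 were named, and from each other list the 2 highest and the lowest by mean signal, of which 1 gene is not reported here. Alternatives varied the scaling, filter, pseudocount, window, start, region settings, replicate block and libraries.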

Additional observations from a re-analysis of the deposited data

How the results depend on the processing

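With all 4 libraries, no member passed the threshold under any alternative (limma adjusted p from 0.683 to 1). The number of promoters that passed rose from 0 to 4 with a pseudocount of 0.1 and to 9 with scaling to the median promoter, and ranged from 0 to 4975 when 1 library was left out, the highest without ApcMin/+ replicate 2 and 47 without wild-type replicate 2 after scaling. The number of members with a higher mean in ApcMin/+, 6 of 10, was 3 after scaling to the median promoter, 3 of 3 with the filter at a mean signal of 2, which *Cdh1*, *Snai1* and, through ApcMin/+ replicate 1 alone, *Fn1* pass, so that this count and median partly follow from the filter, and 1 to 8 with 1 library left out. The median difference, 0.08, became 0.72 with that filter, 0.33 with a pseudocount of 0.1, 0.30 with a window of 500 bp and -0.23 after scaling to the median promoter, and lay between -0.49 and 0.35 with 1 library left out. Differences changed sign after scaling to the median promoter at *Cdh1* (-0.20), *Snai1* (-0.62), *Twist2* (-0.13), *Zeb1* (-0.30) and *Zeb2* (-0.26), and after quantile normalization at *Cdh1* (-0.20), *Snai1* (-0.52), *Zeb1* (-0.053) and *Zeb2* (-0.11). They also did so with a window of 2000 bp at *Cdh2* (-0.11), *Snai1* (-0.054) and *Zeb2* (-0.22), with one of 500 bp at *Snai1* (-0.11) and *Zeb2* (-0.028), and with a pseudocount of 5 at *Zeb2* (-0.0092). The cause was not tested. With 1 library left out, as deposited or scaled, the difference ranged from -0.33 to 1.61 at *Cdh1*, -0.47 to 0.63 at *Cdh2*, -0.18 to 0.96 at *Vim*, -0.19 to 2.50 at *Fn1*, -1.05 to 0.18 at *Snai1*, -0.61 to 0.092 at *Snai2*, -0.95 to 0.19 at *Twist1*, -0.55 to 0.30 at *Twist2*, -0.79 to 0.60 at *Zeb1* and -0.85 to 0.40 at *Zeb2*, and only *Fn1* without ApcMin/+ replicate 2 passed. A group with 1 library left is assumed to vary like the other. With regions at 10 times the genome-wide mean, 3 members had one at the 5′ end in place of 5. The limit to promoters with signal in at least 2 libraries was added after the data were seen, and the planned fit of all promoters also left 0 past the threshold.

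The replicate numbers join separate mice, and whether a number also marks a shared experiment is not stated in the labels. Across promoters, deviations of the libraries numbered 1 correlated with r = 0.324 between the groups, with 2 pairs only. With the replicate block 0 promoters passed and the median difference was 0.08, so no call changed. Depth limits most members, and all but *Cdh1*, *Vim* and *Snai1* held 3 fragments or fewer in 1 or more libraries. *Vim*, with 4.0 and 8.0 fragments in the wild-type libraries, and *Snai1*, with 8.0 in wild-type replicate 1, were shallow there too.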

Other observations

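Away from the promoters, 18 enriched regions lay in or within 5000 bp of the 10 genes, 7 of them at *Cdh1*, and 4 of the 18 held at least 30 fragments over the 4 libraries, a minimum chosen after the values were seen. *Zeb2*, without a region at its start, had the region with the highest mean signal of these 4. It lay at chr2:44988501-44989300, spanned 800 bp, overlapped an exon and untranslated sequence near the 3′ end and was 128095 bp from the gene 5′ end. Its signals were 1.53 and 1.91 in the wild-type and 7.44 and 3.37 in the ApcMin/+ libraries, on 1.8, 7.3, 22.0 and 14.7 fragments. Both ApcMin/+ libraries were above both wild-type libraries there as deposited, but the groups overlapped once each library was scaled to its median promoter. This order was not tested, and the share of all regions that showed it was not determined. The *Fn1* region below and the *Cdh1* region at chr8:106609501-106611200 showed it too as deposited, and also overlapped after scaling.

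*Fn1* had a second region of 1300 bp, 1400 bp into the gene at chr1:71650501-71651800, with signals of 0 and 1.11 in the wild-type and 4.68 and 1.39 in the ApcMin/+ libraries. As at the promoter, ApcMin/+ replicate 1 was the highest of the 4 libraries. In *Cdh1*, 2 intronic regions at chr8:106609501-106611200 and chr8:106619501-106620700 held 46.6 and 55.3 fragments over the 4 libraries, with signals of 0.820, 0.969, 3.76 and 1.39 in the former and of 1.74, 2.30, 5.81 and 2.02 in the latter. *Cdh2*, *Snai2* and *Twist1* had no region holding 10 fragments in their gene or within 5000 bp of it.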
